A study of Mus musculus with 4 samples.

Results

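Kit-positive bone marrow progenitor cells of untreated mice with chronic myeloid leukaemia (CML) were compared with those of untreated wild-type (WT) mice. The cells were chosen by their own counts: at least 1000 unique molecular identifiers (UMIs, each standing for 1 captured transcript), no more than 20% mitochondrial UMIs, at least 1 UMI of Kit, and under 5% of UMIs from the immunoglobulin genes Igkc, Igha and Jchain. Of 6065 cells in both untreated files, 2265 met the rule, 1224 of 3032 in CML and 1041 of 3033 in WT. All 4 libraries of the series hold 18822 cells. At the Kit threshold, 535 CML and 600 WT cells had exactly 1 Kit UMI, and 1765 CML and 1897 WT cells that met the other rules had none; the shallowest selected cells held 1008 and 1007 UMIs. Because cells were selected on Kit, mitochondrial and immunoglobulin UMIs, those values describe the choice and are not results.

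The study took marrow of C57BL/6 mice, sorted it for cells without lineage markers that carry Sca1 and cKit (LSK cells), and ran 1 inDrop library per group. The 4 groups were WT untreated, CML untreated, WT given imatinib and CML given imatinib, the drug at 400 mg/kg by gavage on alternate days for 30 days in one label and 4 weeks in another. How the leukaemia was produced, and how many mice each library holds, are not given in the sources used here. With 1 library on each side there is no replicate spread and no test, and every interval below is a 95% interval that covers counting error only. Cells of 1 library are not replicates of a genotype, and genotype, sex, handling and day of preparation cannot be told apart where they coincide with the library.

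Kit encodes the receptor for stem cell factor and marks stem cells, multipotent progenitors and mast cells. CML is driven by the fusion kinase BCR-ABL, which signals through RAS and ERK, STAT5 and PI3K and drives myeloid cell output. Immediate early genes such as Fos, Egr1 and Dusp1 are transcribed within minutes of growth factor signalling and also when tissue is dissociated, and heat shock chaperones are induced through HSF1 when proteins misfold.

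The groups differed in depth. The median Kit-positive cell held 6953.5 UMIs and 2281 genes in CML, against 4560 UMIs and 1893 genes in WT, and the summed cells held 10832933 and 5463058 UMIs. Of otherwise eligible cells, 41.0% met the Kit rule in CML and 35.4% in WT, and after thinning every cell to 1000 UMIs the shares were 13.8% (12.6 to 15.1) and 12.7% (11.5 to 13.95). Immunoglobulin-rich cells, which should lack Kit, had a thinned Kit UMI in 1 of 43 cells in CML and 1 of 95 in WT. Summed counts are given as CPM, the count of a gene scaled to a common library total, on which Kit stood at 292 in CML and 325 in WT. The header names of both untreated files share 80 barcodes, no pair of cells had identical counts, and the WT untreated and WT imatinib files share 1135 names. No doublet caller was run. The libraries also differed by sex-linked genes: Xist, which coats the inactive X chromosome in females, had a UMI in 1188 of 1224 CML cells and 7 of 1041 WT cells, and at least 1 of 4 Y-linked genes had a UMI in 437 WT cells and 174 CML cells. Of those 174 CML cells, 173 also held Xist UMIs. Sex and genotype cannot be told apart in this pair; without Xist, Tsix and the Y-linked genes, 25 genes were called higher and 9 lower in place of the counts below.

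Surface genes of the sort and of its progenitor subsets were compared next. Of that list, 0 of 7 measured members were called, with 7 of 8 below 0 (median log2 ratio -0.10). These counts and the median include Kit, whose value follows from the cell rule and is not a result. Ly6a, the Sca1 gene, was at 54.2 CPM in CML and 53.4 in WT (log2 ratio of CML to WT 0.02, -0.19 to 0.23). The summed value mixes cells of unlike depth. With cells split into 4 ranges of UMIs per cell, Ly6a was above 0 in all 4 (0.30 to 0.72). Flt3, a cytokine receptor of multipotent and lymphoid-primed cells, was at 148 and 154 CPM (log2 ratio -0.06), and Cd48 at 299 and 323 CPM (-0.11). Cd34, a sialomucin of progenitors, was lower in CML in summed cells, at 341 against 444 CPM (log2 ratio -0.38, -0.45 to -0.30). Over the 4 depth ranges it went from -0.93 to 0.18, with 1 range above 0. Lists of other cell types had summed levels, in CML and WT, of 98.5 and 121 CPM for 21 T cell genes, 128 and 142 CPM for 19 B cell genes, and 254 and 232 CPM for 21 neutrophil genes. The erythroid list summed to 1613 and 1564 CPM, and the dendritic cell list to 5365 and 5560 CPM, of which Plac8, also a gene of myeloid progenitors, made 4819 and 4868. The mast cell list summed to 5328 and 3661 CPM, of which Srgn, a granule proteoglycan gene of many blood cells, made 3473 and 3262.

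A gene was called when its CPM differed at least 2-fold and the higher library held at least 50 CPM and 50 UMIs. Of 3904 genes with those minimum values, 26 were called higher in CML (0.666%) and 10 lower (0.256%). With so few calls, a gene list with 0 called members is near those shares and is not set apart from other genes. The median log2 ratio over the 8949 genes with at least 10 CPM was 0.00, with 5% of genes below -0.50 and 5% above 0.61. The higher genes were of 4 kinds: heat shock chaperones, immediate early genes, mast cell genes and Xist, with Prg2, Gm42418, Slc7a8, Olfr354, Klhl12, Tnfaip3 and Tsc22d3 besides. Gm42418 overlaps ribosomal RNA sequence, and its count is uncertain. The lower genes held Irf8, Ly86, Mpeg1 and Ly6c2 of the monocyte lineage, the immunoglobulin heavy chain gene Ighm, the Notch target Hes1, the chemokine Ccl3, the interferon-induced Rtp4, Arl2bp and Y-linked Eif2s3y. The genes nearest the 2-fold limit were Tsc22d3 (log2 ratio 1.002) and Tnfaip3 (1.04) inside it and Dnajb4 (0.96) and Jun (0.95) outside it on the higher side. On the lower side they were Arl2bp (-1.02) and Hes1 (-1.05) inside and Egfl7 (-0.90) and Smim4 (-0.88) outside.

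**Figure D1:**
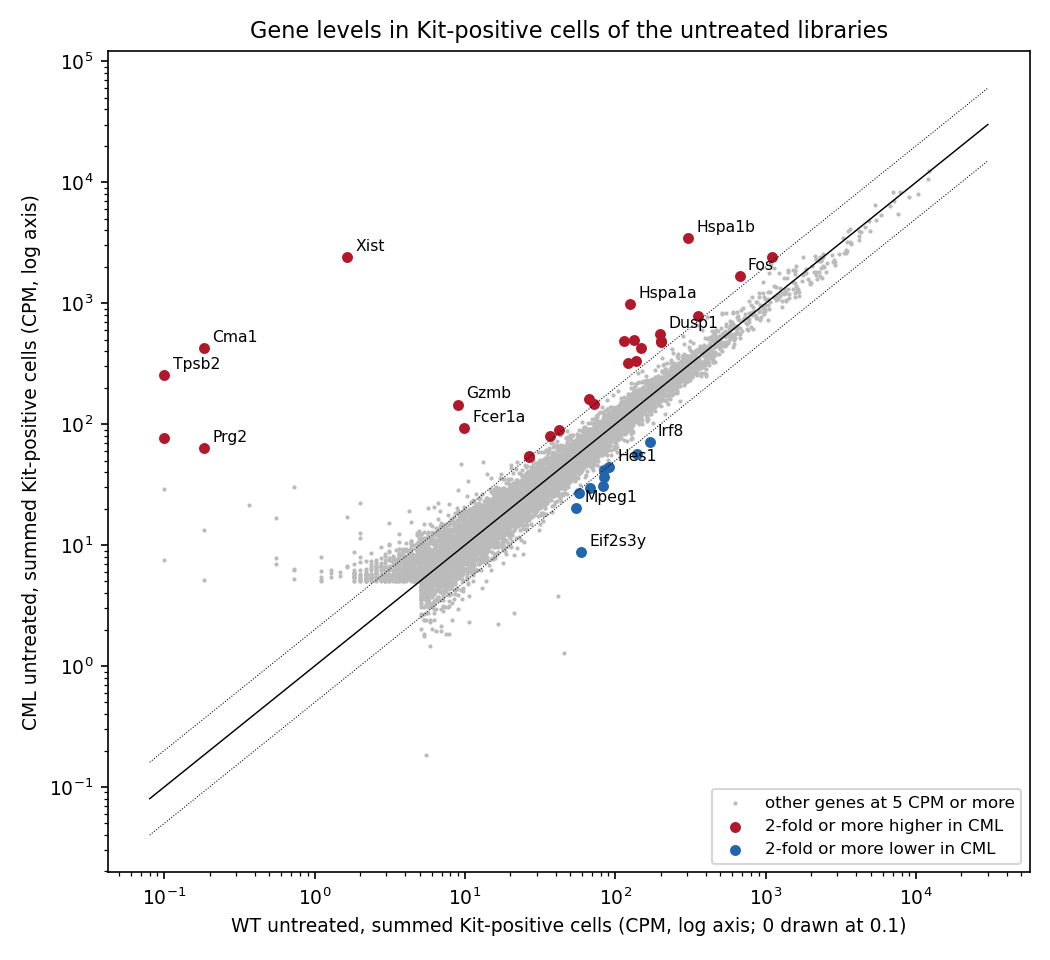
Summed level of each gene with at least 5 CPM in either library, in Kit-positive cells, WT on the horizontal and CML on the vertical axis, both in CPM on log axes; the solid line marks equal levels and the dotted lines a 2-fold difference. The 26 higher genes (red) and 10 lower genes (blue) stand outside a band that holds nearly all other genes; Tpsb2 and Mcpt4, with 0 UMIs in WT, are drawn at 0.1 CPM.

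Apart from Xist, the heat shock chaperone genes Hspa1b and Hspa1a gave the largest higher calls that were spread over many cells. The immediate early gene Fosb (log2 ratio 1.90) stood above the other called chaperone genes, Hsph1 (1.51) and Dnajb1 (1.28). Hspa1b (chromosome 17, 34956436 to 34959238 on GRCm38), an inducible HSP70 gene, was at 3471 CPM in CML and 306 CPM in WT, an 11.4-fold difference (10.8 to 11.9). Its neighbour Hspa1a (chromosome 17, 34969190 to 34972156) was at 986 and 125 CPM, 7.86-fold (7.28 to 8.51). Both genes encode the same protein and are near-identical copies, so the split of reads between them is uncertain. Hsph1 (chromosome 5, 149614287 to 149636376), an HSP110 that resets HSP70 for another cycle, was at 425 and 149 CPM, 2.85-fold (2.64 to 3.07). Dnajb1 (chromosome 8, 83608193 to 83612653), the HSP40 that hands substrates to HSP70, was at 334 and 138 CPM, 2.42-fold (2.24 to 2.63).

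The promoters of the HSP70 pair and of 2 immediate early genes are shown as the examples in which a motif searched for was found. The sequences are from RefSeq (GRCm38.p6), end at or before the annotated start, and are written 5′ to 3′ with the motif in capitals. The first 2 are 250 bases each, Hspa1b at chr17:34959239-34959488 and Hspa1a at chr17:34972157-34972406, both on the minus strand, and capitals mark the heat shock element core GAANNTTC. Dusp1 at chr17:26508572-26508651 and Btg2 at chr1:134079278-134079357, also on the minus strand, are 80-base stretches in which capitals mark the cyclic AMP response element TGACGTCA.
Hspa1b: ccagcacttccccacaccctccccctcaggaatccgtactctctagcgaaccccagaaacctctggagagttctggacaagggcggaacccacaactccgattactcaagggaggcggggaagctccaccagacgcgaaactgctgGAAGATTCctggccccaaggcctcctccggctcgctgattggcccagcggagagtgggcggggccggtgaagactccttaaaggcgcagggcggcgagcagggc
Hspa1a: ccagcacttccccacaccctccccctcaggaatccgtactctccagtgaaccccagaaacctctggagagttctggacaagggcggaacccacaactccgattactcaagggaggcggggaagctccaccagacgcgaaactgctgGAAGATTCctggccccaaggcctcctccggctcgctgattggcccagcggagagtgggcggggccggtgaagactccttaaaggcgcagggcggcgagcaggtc
Dusp1: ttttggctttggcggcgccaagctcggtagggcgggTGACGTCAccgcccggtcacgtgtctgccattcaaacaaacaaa
Btg2: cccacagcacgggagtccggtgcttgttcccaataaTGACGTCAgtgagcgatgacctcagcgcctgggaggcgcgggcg
The 2 HSP70 promoters are identical at 247 of 250 bases, and in both the motif begins 104 bases before the start. The same core is in 6.69% of 32851 promoter windows of this length. Its other arrangement, TTCNNGAA, searched after the values were seen, is in 7.17%. It was found in the Hsph1 windows, where the match lies at least partly in annotated exon sequence and not wholly upstream of the gene. TGACGTCA is in 1.55% of windows. Among the 11 searched genes of both groups, GAANNTTC was found in 2, TTCNNGAA in 1 and TGACGTCA in 2, and none of these was found before Dnajb1, Fos, Fosb, Jund, Klf2 or Klf6. The AP-1 motif TGACTCA, searched on both strands, is in 4.46% of windows, and the serum response element in 1.47%; neither was found before the 11 genes of these groups that matched the table. A match describes letters in a window and is no evidence that a factor bound there. Only exact matches in the 250 bases before each RefSeq start were searched, and some of these windows overlap annotated exons. For Dnajb1, 1 window lies inside the gene, with 245 of its 250 bases in exons. A motif further upstream would be missed, so a missing match does not show that a gene lacks the element.

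Of the 17 heat shock genes with enough counts, 4 were called higher and 0 lower, and 17 of the 20 at 10 CPM or more had a log2 ratio above 0 (median 0.49, against 0.00 over all genes). Other abundant chaperones were under the 2-fold limit. Hspa8, the housekeeping HSP70, was at 1488 CPM in CML and 961 in WT (log2 ratio 0.63), the inducible HSP90 gene Hsp90aa1 at 1888 and 1411 (0.42), and the constitutive Hsp90ab1 at 2571 and 2389 (0.11). The mitochondrial chaperonin gene Hspe1 was at 705 and 768 CPM (-0.12), and Hsf1, the regulator of the response, at 39.3 and 45.0 CPM (-0.20, -0.43 to 0.04). The small heat shock gene Hspb1 was too low to be called, at 17.2 CPM in CML (186 UMIs) and 1.65 in WT (9 UMIs).

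The difference in the list's summed share was spread over most cells, and the HSP70 pair made a large part of it. In summed cells the list was at 14209 CPM in CML and 7925 in WT. Hspa1b made 3471 and 306 CPM of that and Hspa1a 986 and 125. A share without the pair is not given here. Each cell gave a median of 1.29% of its UMIs to the heat shock list in CML and 0.708% in WT, and 773 of 1224 CML cells (63.2%) lay above the WT 90th percentile of 1.08%. After thinning to 1000 UMIs, Hspa1b had a UMI in 65.2% of CML and 12.0% of WT cells, and Hspa1a in 43.1% and 6.24%. Immunoglobulin-rich cells of the same libraries, which were left out of the comparison and have their own depth (median 4646 UMIs in CML and 5853 in WT), showed Hspa1b in 27.9% of 43 cells in CML and 6.32% of 95 in WT. The order of the libraries was the same in those cells at lower shares, and the part of free RNA in the result was not tested.

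Immediate early genes were higher in CML as a group, with 8 of the 17 measured members called higher, 0 lower, and a median log2 ratio of 0.79 over 24 members. Fosb, an AP-1 subunit (chromosome 7, 19302696 to 19310051), was at 498 CPM in CML and 133 in WT, 3.73-fold (3.46 to 4.04). Fos, of the same family (chromosome 12, 85473890 to 85477273), was at 1676 and 669.8 CPM, 2.503-fold (2.42 to 2.59). Dusp1, which dephosphorylates MAP kinases, was at 552 and 198 CPM, 2.79-fold (2.62 to 2.98). Btg2, an antiproliferative gene, was at 319 and 122 CPM, 2.62-fold (2.41 to 2.85), and Egr1, an ERK-induced zinc finger factor, at 790.5 and 352 CPM, 2.25-fold (2.14 to 2.36). Klf6 and Jund were called too, with log2 ratios of 1.28 and 1.24, as was Klf2 with 1.29.

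Not every member of the list differed in this way. Jun was at 2093 CPM in CML and 1082 in WT, just under the 2-fold limit, and Zfp36, an mRNA decay factor, at 1964 and 1137 CPM (log2 ratio 0.79). Ier3 was at 117 and 145 CPM (-0.31, -0.44 to -0.18) and the nuclear receptor gene Nr4a1 at 64.3 and 77.8 CPM (-0.27). The list therefore held members on both sides of 0, with 21 of 24 above it.

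The share of immediate early UMIs varied widely from cell to cell and with depth. Its median was 0.951% of a cell's UMIs in CML and 0.498% in WT, and 403 CML cells (32.9%) lay above the WT 90th percentile of 1.495%. In both libraries shallower cells gave a larger share: in WT the median was 0.768% in cells of 1000 or more but below 2500 UMIs and 0.259% in cells of 10000 or more, and in CML 1.61% and 0.635%. Within each of the 4 depth ranges the CML median was the higher, as it was for heat shock. These genes were also detected in immunoglobulin-rich cells: thinned Fos UMIs were in 72.1% of such cells in CML and 74.7% in WT, above the 58.3% and 39.3% in Kit-positive cells. Fosb was in 46.5% and 33.7% of immunoglobulin-rich and in 31.0% and 11.3% of Kit-positive cells.

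**Figure D2:**
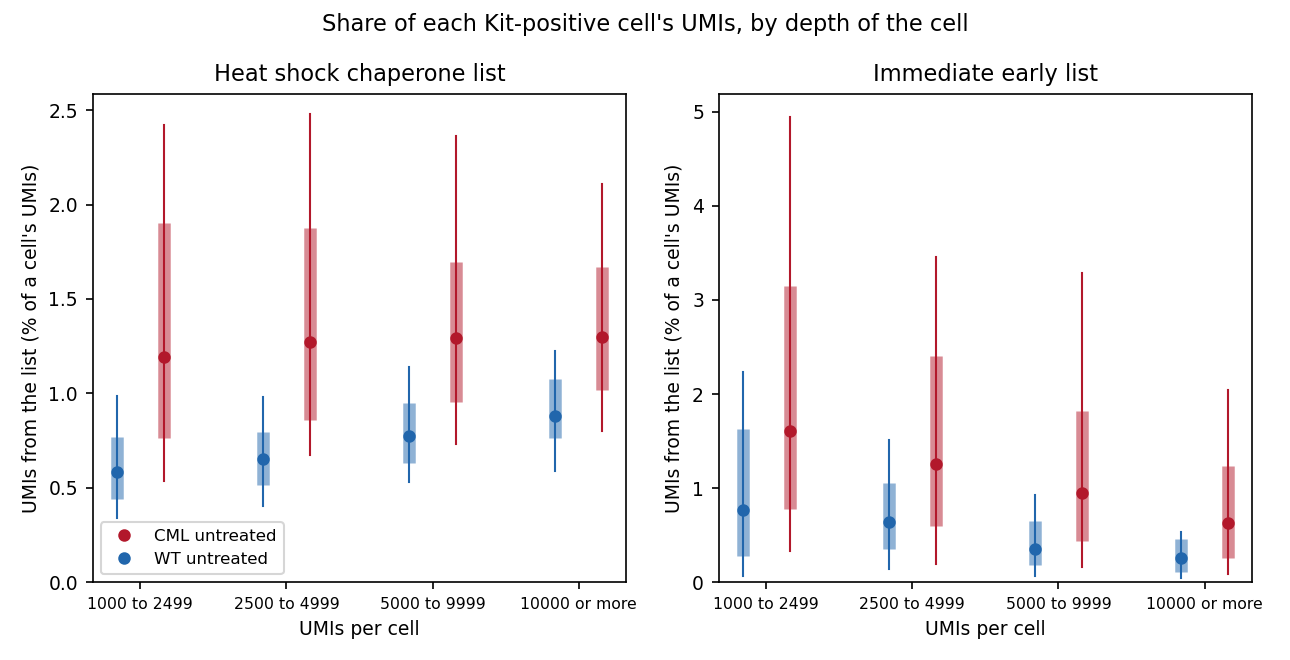
Share of a Kit-positive cell's UMIs from the heat shock list (left) and the immediate early list (right), for cells grouped by UMIs per cell; points are medians, thick bars the middle 50% and thin lines the 10th to 90th percentile of cells. In every depth range the CML median (red) is above the WT median (blue), and the immediate early share is lower in deeper cells of both libraries.

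Feedback and survival genes downstream of BCR-ABL signalling differed by less. Of 5 measured ERK feedback genes only Egr1 was called; Dusp6, a feedback phosphatase specific to ERK, was at 98.2 CPM in CML and 94.5 in WT (log2 ratio 0.06), and Dusp5 at 63.2 and 36.4 CPM (0.80). None of 8 measured STAT5 targets was called. Pim1, a survival kinase, was at 1134 and 807 CPM (0.49), Myc at 847 and 608 CPM (0.48), and Mcl1, a BCL2-family survival gene, at 764 and 409.7 CPM (0.90). The STAT5 targets Cish and Socs2 were at 15.8 and 26.8 CPM in CML and 13.4 and 21.8 CPM in WT, with intervals that include 0. Abl1 was at 120 CPM in CML and 106 in WT (log2 ratio 0.18, 0.04 to 0.32) and Bcr at 17.3 and 19.4 CPM. Counts per gene cannot single out the BCR-ABL fusion.

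Among the highest ratios, beside Xist (log2 ratio 10.52) and Prg2 (8.44), were mast cell genes, whose counts rested on few cells. Cma1, a mast cell chymase, had 4571 UMIs in CML (422 CPM) and 1 in WT (log2 ratio 11.17, 8.69 to 16.47). Tpsb2, a tryptase, had 2768 UMIs and 0, and Mcpt4, another chymase, 829 and 0; with WT set to 3 counts in the library these are at least 465-fold and at least 139-fold higher. Gzmb was at 145 and 8.97 CPM, Fcer1a, a chain of the IgE receptor, at 92.1 and 9.88 CPM, and Cpa3, a carboxypeptidase of mast cell granules, at 487 and 113 CPM. Near-identical relatives of the tryptases and chymases may share reads, so the split among them is uncertain.

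The mast cell and basophil list has 19 genes, of which 9 were measured, 6 called higher and 0 lower, and 2 (Tpsb2 and Mcpt4) had 0 UMIs in WT. The called genes' counts lay mostly in 22 CML cells (1.80% of Kit-positive cells) that gave at least 2% of their UMIs to the list, against 1 WT cell (0.0961%). Those 22 cells held 99.7% of Cma1, 99.4% of Tpsb2, 96.7% of Gzmb, 93.1% of Fcer1a and 85.9% of Cpa3 UMIs in CML. They had a median of 6208.5 UMIs, against 7020.5 in other CML cells. A further 24 CML and 17 WT cells gave between 1% and 2%.

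Without the mast-rich cells, an alternative added after the values were seen, 17 genes were called higher in place of 26 and the 10 lower calls were unchanged. Cpa3 then stood at 69.9 CPM in CML, against 113 in all WT cells. Its log2 ratio turned from 2.10 to -0.65, and that of Fcer1a from 3.22 to -0.61. The other called mast cell genes did not all turn. Gzmb stayed above 0 at 1.15, with 12 UMIs in the remaining WT cells. Cma1 and Tpsb2 had 0 UMIs there and, with WT set to 3 counts, stood at 1.26 and 1.45. Mcpt4 was at 0.375 CPM in the remaining CML cells and had 0 UMIs in WT. The mast cell list's median went from 3.34 to -0.0016, but each value covers only members with at least 10 CPM in its setting. Cma1, Tpsb2, Mcpt4, Gzmb and Fcer1a fell below that minimum and left the median. The cells taken out were chosen by this same list, so a fall follows from the choice. Besides Cma1, Tpsb2, Mcpt4, Gzmb, Cpa3 and Fcer1a, the calls of Slc7a8, Tnfaip3 and Tsc22d3 were lost. The log2 ratio of Hspa1b was 3.51 with and without those cells, and that of Fosb 1.90 with and 1.82 without them. Il1rl1, the interleukin-33 receptor, had 62.5% of its CML UMIs in the 22 cells. 

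Prg2, which encodes eosinophil major basic protein, was at 63.5 CPM in CML and 0.183 in WT, but 674 of its 688 CML UMIs came from 1 cell. That cell also held 53 UMIs of eosinophil peroxidase, Epx, and none of the mast-rich cells held a Prg2 UMI. The difference for Prg2 is therefore a value of 1 cell. In immunoglobulin-rich cells Prg2 was common, with a thinned UMI in 37.2% of them in CML and 36.8% in WT.

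Monocyte and macrophage genes were lower in CML. Of 5 measured members 0 were called higher and 2 lower, and 10 of 12 members at 10 CPM or more were below 0 (median log2 ratio -0.67). With cells thinned to 1000 UMIs before the Kit rule, the median was -0.054 and 0 members were called. Irf8, the transcription factor that directs progenitors to monocytes and dendritic cells (chromosome 8, 120736358 to 120756694), was at 70.9 CPM in CML and 169 in WT, 2.38-fold lower (2.16 to 2.62). Ly86, a surface protein gene of myeloid and B cells, was at 36.5 and 83.5 CPM, 2.29-fold lower (1.996 to 2.63). Mpeg1, a pore-forming protein of macrophages, was at 20.1 and 54.7 CPM, and Ly6c2, a surface antigen of monocytes, at 26.9 and 57.5 CPM. Neither of these 2 was called with the Kit-positive cells thinned or with the mean of single-cell CPM; Mpeg1 was also not called with at least 2 Kit UMIs per cell, nor Ly6c2 without the deepest 5% of cells. Ms4a6c at 103 and 177 CPM (-0.79), F13a1 at 44.2 and 78.9 CPM (-0.84) and Csf1r, the receptor for the macrophage growth factor, at 31.1 and 45.8 CPM (-0.56) were lower without reaching 2-fold.

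The share of cells with a UMI had the same order. After thinning, Irf8 had a UMI in 4.17% of CML and 12.0% of WT Kit-positive cells. Of immunoglobulin-rich cells, 1 of 43 in CML (2.33%) and 3 of 95 in WT (3.16%) held an Irf8 UMI. These few cells do not fix a background for the CML share, and the part of free RNA in the result was not tested. In summed cells, fewer cells with these transcripts and less RNA per cell cannot be told apart. In cells with no Irf8 UMI, the monocyte list had a median log2 ratio of 0.13 and summed to 328 CPM in CML and 309 in WT. In cells with 1 or more Irf8 UMIs it summed to 1211 and 1966 CPM (median -0.73). The split uses a member of the list itself, and the shares of Irf8-positive cells were 21.3% in CML and 28.0% in WT.

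Granulocyte genes leaned the same way by less: of 18 measured granulocyte-monocyte progenitor genes 0 were called higher and 1 (Ly6c2) lower. Mpo, the myeloperoxidase gene, was at 731 CPM in CML and 1032 in WT (log2 ratio -0.50), Elane, neutrophil elastase, at 1147 and 1668 (-0.54), and Prtn3, proteinase 3, at 1134 and 1562 (-0.46). Csf3r and Fcgr2b of the same list stood the other way: Csf3r, the G-CSF receptor, at 43.9 and 25.4 CPM (0.79) and Fcgr2b at 69.9 and 38.4 CPM (0.86). Over the 4 depth ranges Mpo went from -1.46 to 0.33, with 1 range above 0. Lcn2, a neutrophil granule gene, was at 49.0 and 13.2 CPM (log2 ratio 1.90, 1.54 to 2.27), under the 50 CPM minimum for a call.

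Type I interferon response genes were mostly lower in CML by small amounts, with 17 of 19 below 0, a median of -0.32 and 1 of 9 measured genes called (Rtp4, at 29.5 CPM in CML and 68.3 in WT). The direction did not hold in cells of 10000 or more UMIs, where the list's median was 0.12 and a cell's median share 0.0813% in CML and 0.0782% in WT, and in the imatinib pair the median was 0.27. Mx1, an antiviral GTPase, was at 2.31 and 10.62 CPM, and Rsad2, viperin, at 9.14 and 17.9 CPM (-0.97). Lymphoid-primed genes split: Ighm was at 56.9 and 139 CPM (2.44-fold lower, 2.19 to 2.72) and Dntt, the terminal transferase of early lymphoid cells, at 86.8 and 131 CPM (-0.60), while Satb1 (0.16) and Ikzf1 (0.11) were near 0. Over the 4 depth ranges Dntt went from -1.16 to 0.96, with 1 range above 0. Ighm had thinned UMIs in 46.5% of immunoglobulin-rich cells in CML and 30.5% in WT. The part of free RNA in the Ighm result was not tested.

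Among stem cell genes 0 of 14 measured were called, and the median log2 ratio was -0.03. Hlf, a transcription factor of long-term stem cells, was at 93.2 CPM in CML and 81.8 in WT (0.19, 0.03 to 0.35), Meis1 at 96.9 and 83.3 CPM (0.22), and Mecom at 29.5 and 38.6 CPM (-0.39). Ifitm1, an interferon-inducible membrane gene, was at 664 and 351 CPM (0.92) and Hmga2, a chromatin protein of fetal stem cells, at 23.2 and 43.4 CPM (-0.90). Of 8 measured candidates for CML stem cell markers and dependencies 0 were called; Dpp4, which encodes CD26, was at 29.3 and 39.0 CPM (-0.41). Hes1, a Notch target, was at 43.9 and 91.0 CPM, 2.07-fold lower (1.82 to 2.35), while Notch1 itself was at 38.0 and 49.4 CPM (-0.38).

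Cell cycle genes were at like levels in both libraries. The median log2 ratios were -0.05 for S phase and -0.02 for G2 and M phase genes. None of 34 and 43 measured members was called in either direction, near the 0.666% and 0.256% over all measured genes. Translation and respiration genes were slightly lower in CML: 59 of 80 ribosomal protein genes were below 0 (median -0.18) and 74 of 86 nuclear respiratory chain genes (median -0.20), with 0 called. Ribosomal protein genes took a median of 11.7% of a cell's UMIs in CML and 13.9% in WT. The ER chaperones leaned to CML in summed cells, with 17 of 19 above 0 and a median of 0.31; Hspa5, the ER HSP70 also called BiP, was at 1779 and 1046 CPM (0.77). This direction did not hold at every depth: in cells of 10000 or more UMIs the list's median was -0.13, and a cell's median share was 0.715% in CML and 1.101% in WT.

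**Figure D3:**
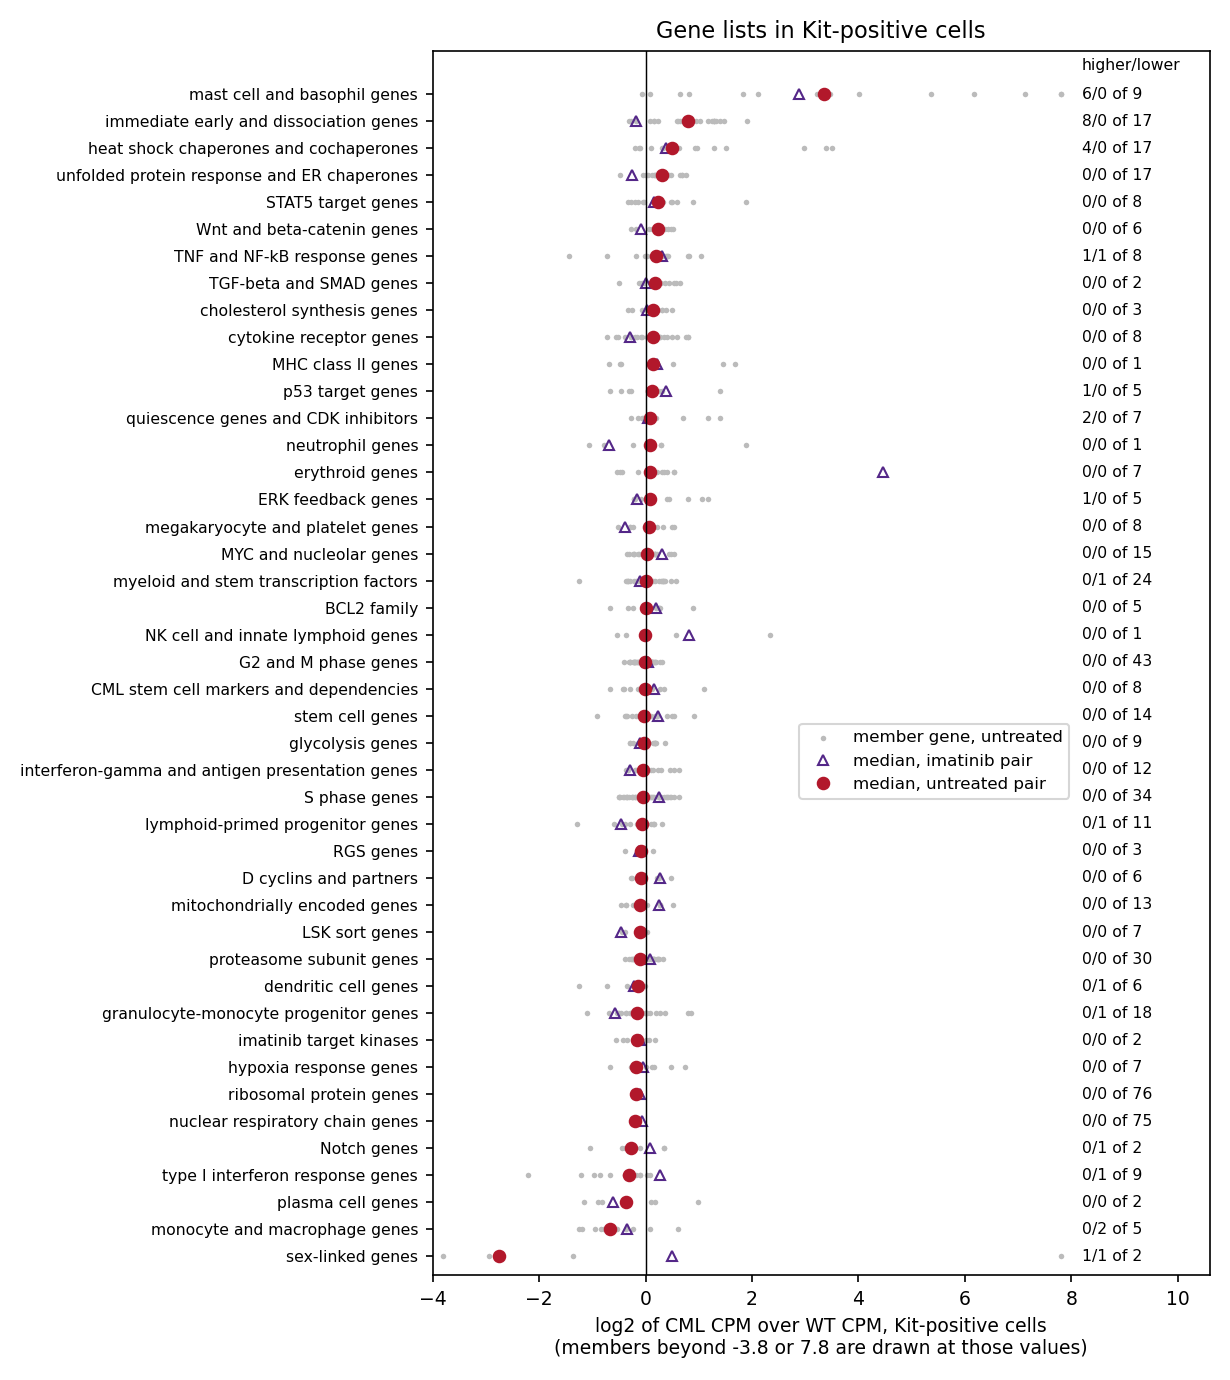
Median log2 ratio of CML to WT for each gene list with at least 5 members at 10 CPM or more, in the untreated pair (red points) and the imatinib pair (open triangles); grey points are member genes of the untreated pair, drawn for all lists but the ribosomal protein and respiratory chain lists and at the edge of the range where they lie beyond it. Numbers at the right count called genes, higher and lower, of those measured: the mast cell (6 of 9), immediate early (8 of 17) and heat shock (4 of 17) lists hold most higher calls.

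To see where among progenitors the differences lay, cells were split by 1 or more UMIs of Hlf, Dntt, Flt3, Mpo, Irf8, Gata2 or Cd34, which gives 14 subsets, and by depth in 4 ranges. Hspa1b was at least 2-fold higher in CML in all 14 marker subsets (log2 ratio 2.42 to 5.33) and all 4 depth ranges (2.80 to 4.67). Fosb was at least 2-fold higher in all 14 and all 4 as well (1.58 to 2.26, and 1.71 to 2.86), and Fos was above 0 in all of them and at least 2-fold higher in 12 and 4. The heat shock list had a median between 0.44 and 0.58 over the marker subsets. In Hlf-positive cells, 314 in CML and 213 in WT, its median was 0.49 and that of the immediate early list 0.80. In Dntt-positive cells, 127 and 129, they were 0.50 and 0.84, and in Mpo-positive cells, 614 and 503, they were 0.48 and 0.76. Both medians were above 0 in cells with a marker of stem cells, of lymphoid-primed cells and of myeloid cells, and no subset was tested against another.

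Among the lower genes, Arl2bp, Ccl3, Eif2s3y, Ighm, Irf8, Ly6c2, Ly86 and Mpeg1 were below 0 in every marker subset where they can be read and in all 4 depth ranges, and Hes1 and Rtp4 turned with depth. Irf8 was below 0 in all 13 subsets where it can be read (-1.67 to -0.59) and in all 4 depth ranges (-2.10 to -0.96). Hes1 was below 0 in all 14 marker subsets, with a log2 ratio of 1.09 in cells of 10000 or more UMIs, where WT has 88 cells with 13 Hes1 UMIs and CML 407 cells with 166. Rtp4 stood at 0.68 there, with an interval that includes 0 (-0.12 to 1.59). Of the higher genes, Cpa3 was below 0 in 2 of 14 marker subsets. Tpsb2 and Mcpt4 had 0 UMIs in WT. Their values below 0 in some subsets come from setting counts of 0 to 3 and give no direction. Prg2 was below 0 in 2 subsets, but its WT counts are too few to be read there.

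**Figure D4:**
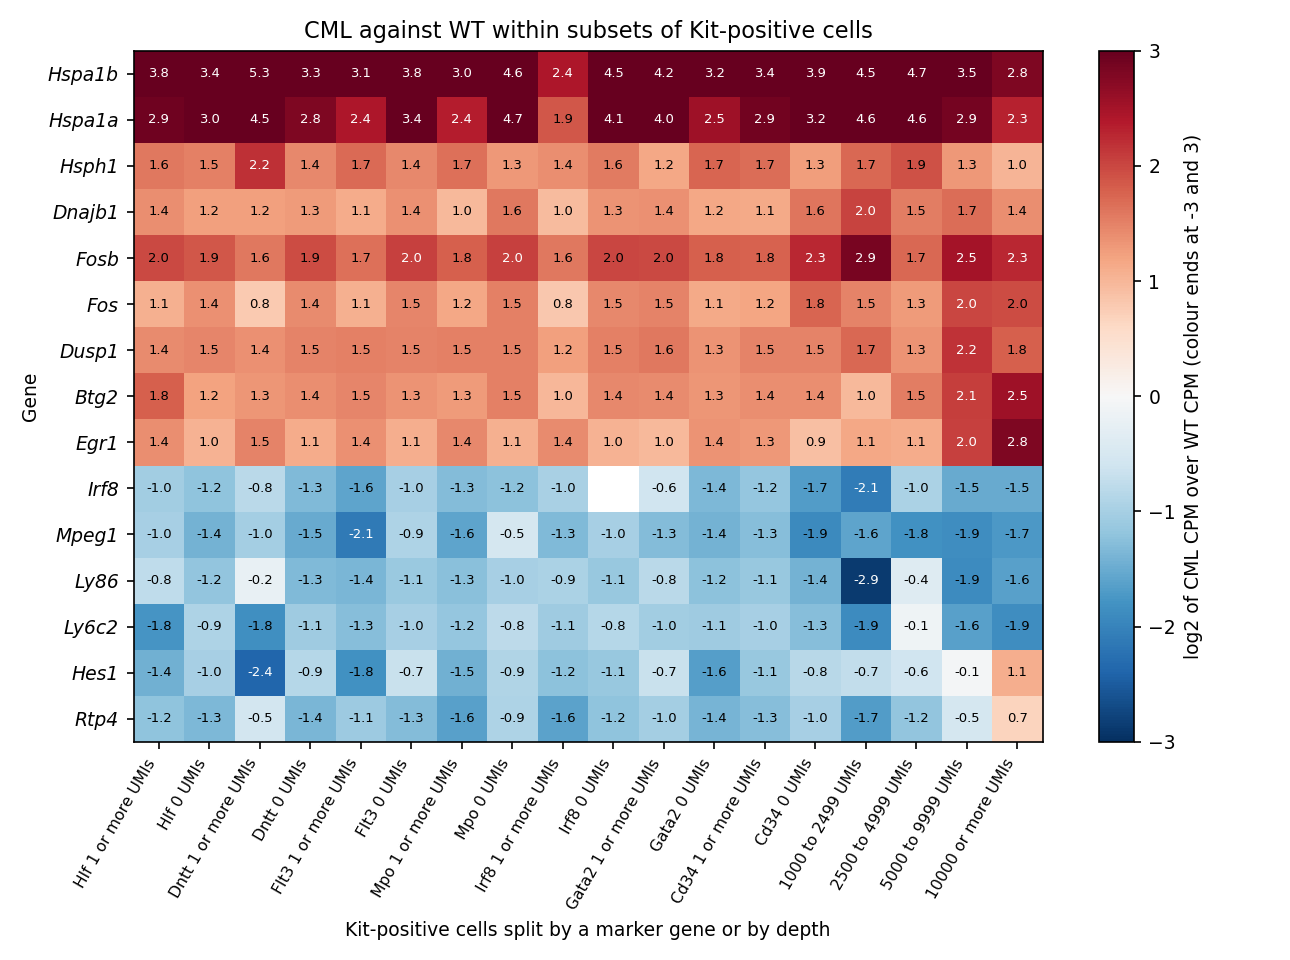
log2 ratio of CML to WT for named genes (rows) in subsets of Kit-positive cells (columns) split by a marker gene or by UMIs per cell; red is higher and blue lower in CML, and the square for Irf8 in cells without Irf8 UMIs is empty. Heat shock and immediate early rows are red throughout, with Hspa1b between 2.42 and 5.33 in marker subsets, while Hes1 and Rtp4 change sign in the deepest cells.

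The same comparison was read in other cells by the same minimum values. Kit-negative cells of the same untreated libraries, 1765 in CML and 1897 in WT, gave 18 higher (0.466%) and 7 lower genes (0.181%) of 3862. They share their libraries with the Kit-positive cells and are no independent sample. Hspa1b was at 3780 CPM in CML and 351 in WT there, Fosb at 523 and 159 CPM, Irf8 at 99.6 and 244 CPM. Mast cell genes went both ways there. Gzmb was called higher, at 52.4 and 9.22 CPM (log2 ratio 2.51, 2.14 to 2.90), and Cma1 was at 2.95 and 0.279 CPM (3.40, 1.42 to 6.51). Cpa3 was lower in CML, at 75.6 and 109 CPM (-0.53, -0.68 to -0.39), and Fcer1a was at 8.55 and 9.92 CPM, with an interval that includes 0 (-0.68 to 0.26). Of the 26 higher genes 19 were measured in Kit-negative cells and 14 were called the same way, and of the 10 lower genes 10 and 5.

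The imatinib pair, 564 CML and 730 WT Kit-positive cells, shares no library with the untreated pair. There 174 genes were higher in CML (4.22%) and 15 lower (0.364%) of 4122, so the background of calls was larger. Of the 26 higher genes 18 were measured, 8 were called higher and 0 lower; of the 10 lower genes 5 were measured and 1 (Ighm, at 22.8 CPM in CML and 55.3 in WT) was called. The 8 were Xist, Hsph1 and the 6 mast cell genes. Of the lower genes, Hes1 (log2 ratio 3.53), Rtp4 (1.21) and Ccl3 (0.64) were under the minimum values there and stood above 0. Arl2bp, which was measured, stood at 0.97, and the remaining lower genes were below 0. Sex-linked levels were not those of the untreated pair. The sex-linked list summed to 244 CPM in CML and 122 in WT under imatinib, and to 2443 and 151 untreated. Y-linked Ddx3y was at 44.6 and 31.6 CPM under imatinib, and at 1.29 and 45.8 CPM untreated. The part of sex in differences between the pairs was not tested. Cma1 was at 1124 and 18.4 CPM, Tpsb2 at 310 and 1.76 CPM, and Cpa3 at 1346 and 102 CPM. Hsph1 was at 226 and 72.9 CPM (log2 ratio 1.63). The other heat shock genes differed by less than in the untreated pair: Hspa1b was at 716 and 503 CPM (0.51) and Hspa1a at 299.5 and 225 CPM (0.41).

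The immediate early genes did not show the untreated pattern. Fos was at 186 CPM in CML and 267 in WT (log2 ratio -0.53), Dusp1 at 105 and 106 CPM (-0.02), Egr1 at 25.3 and 30.3 CPM (-0.26) and Fosb at 90.7 and 74.2 CPM (0.29). The list's median was -0.18 with 0 of 11 measured genes called. Irf8 was at 119 and 124 CPM (-0.07). The erythroid list had a median of 4.46 in that pair and 0.08 in the untreated pair, and its part in these differences was not tested. The difference between the pairs was not tested either.

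**Figure D5:**
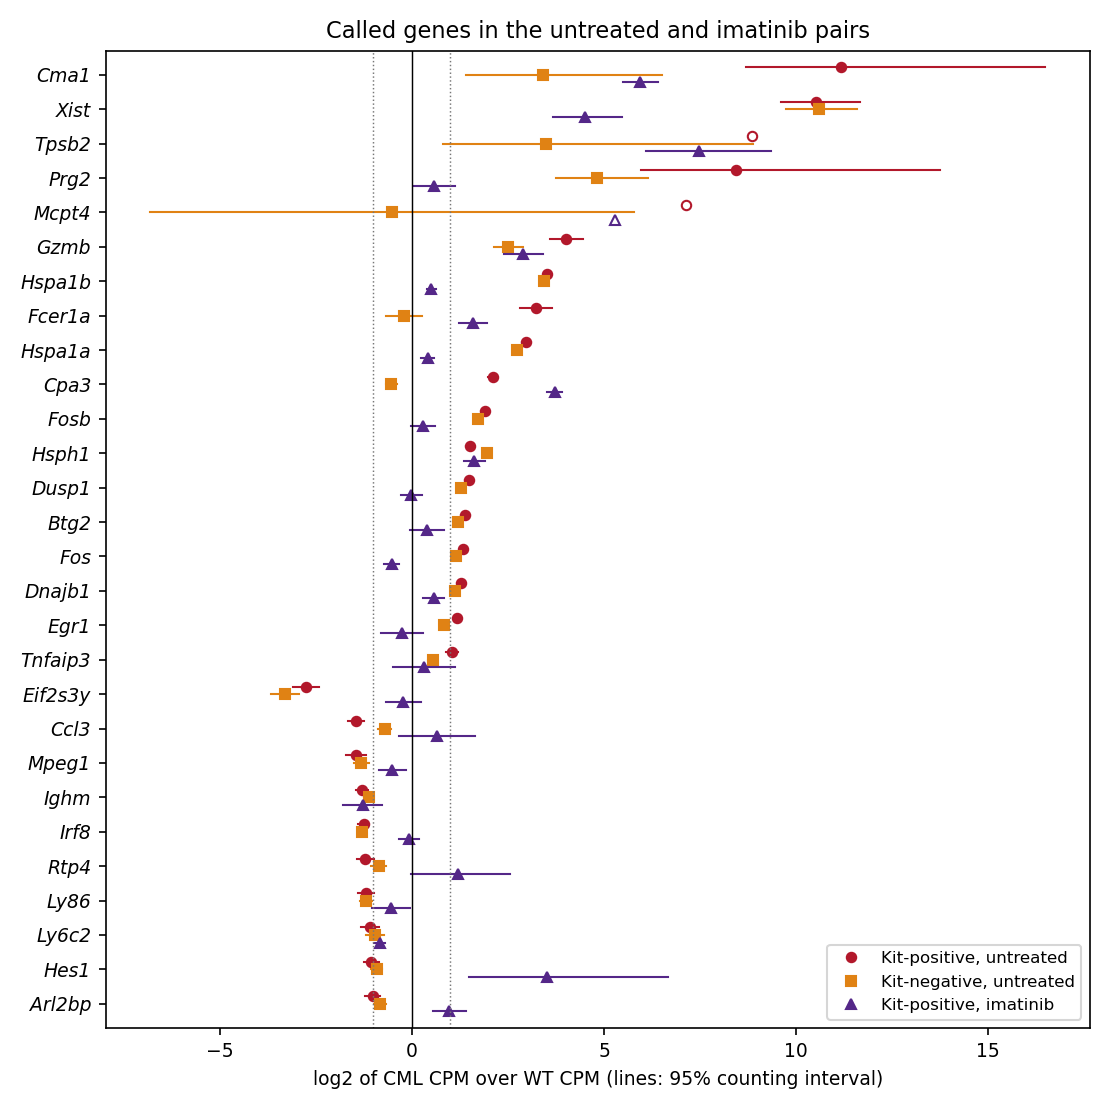
log2 ratio of CML to WT for the called genes that the naming rule covers, in Kit-positive (circles) and Kit-negative cells (squares) of the untreated pair and in Kit-positive cells of the imatinib pair (triangles); lines are 95% counting intervals, and open symbols have 0 UMIs in WT, set to 3 counts. Hspa1b and Fosb lie close together in the untreated cells and nearer 0 in the imatinib pair, while Cma1, Tpsb2 and Cpa3 stay far above 0 in it.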

How the data were processed

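Single-cell libraries were made with inDrop from sorted LSK marrow cells, 1 library per group. Each deposited file holds a normalized signal per gene and cell, which the authors scaled so that each cell's values sum to about 2839.18, as the values show. Partek 8.0, Bowtie 1.1.1 and the build GRCm38 (mm10) are listed per the submitters' processing notes, and their roles are not given in the sources used here. Dividing by the smallest value of a cell gave whole UMI counts for 100% of entries, within 0.02. Headers hold 1 name too many, so cells were taken by column position. UMIs were summed over cells and scaled to CPM, and log2 ratios carry exact conditional binomial (Clopper-Pearson) intervals at the 95% level. Genes at 0 were set to 3 counts. No count model was fitted. A self-test on simulated counts was passed.

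The cell rule, the 47 gene lists and the tests were chosen with earlier results of these data known. Named genes were up to 15 called genes at each end of the log2 ratio, ranked with 1 CPM added and leaving out Gm, Rik, ribosomal, mitochondrial and rule genes (only 10 were lower), up to 4 members of each list with 20 CPM or more and the largest absolute log2 ratio, and the sort, kinase and split genes. Other list members are named to describe their list, and Slc7a8, Tsc22d3, Epx, Hspb1 and further members were chosen after their values were seen. Coordinates are from GENCODE vM21 for 179 named genes. Thinning drew 1000 UMIs per cell once without replacement. TTCNNGAA and the serum response element were added after seeing the data. Alternatives covered the cell filters, Kit rule, depth, scaling (TMM from edgeR 4.0.16 in R 4.3.3), deepest cells, other cell types and minimum levels. Python 3.11.15, numpy 2.4.6, scipy 1.17.1 and matplotlib 3.10.9 were used.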

Additional observations from a re-analysis of the deposited data

Results flagged for a closer look

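Fos and Arl2bp stood in opposite directions in the untreated and the imatinib pair, by the intervals of both; the difference was not tested. Fos, an AP-1 gene, had a log2 ratio of CML to WT of 1.32 untreated and -0.53 under imatinib (185.5 against 267 CPM; -0.72 to -0.34). Arl2bp, a binding partner of an ARL2 GTPase, had -1.02 untreated and 0.97 under imatinib (64.4 against 32.9 CPM; 0.54 to 1.40). Each value rests on 1 library per group, and the intervals cover counting error only.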

How the results depend on the processing

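The 26 higher genes became 41 with at least 2 Kit UMIs per cell, 50 with the Kit-positive cells thinned to 1000 UMIs, 52 with minimum values of 20 CPM and 20 UMIs, and 17 without cells giving 2% or more of their UMIs to mast, erythroid, T or plasma cell lists (17 also without mast-rich cells alone, added after seeing the data). The 10 lower genes became 19 after thinning, 23 at the lower minimum values and 2 at 100 CPM and 100 UMIs, where 19 stayed higher. Of the 26 higher genes, 25 remained after thinning, as did 7 of the 10 lower genes, and 22 of the higher under TMM scaling, which moved the median of all genes to -0.11. The heat shock median was 0.37 under TMM, against 0.49. With thinning before the Kit rule (413 CML and 373 WT cells), the interferon median was -0.80, the monocyte median -0.054 and the mast median 2.71; 1572 genes reached the minimum values, and 20 of the 26 higher but 1 of the 10 lower genes remained called. The mast median was 2.38 in all cells whatever their Kit count, 2.0 after thinning, 2.84 as a mean of single-cell values, and -0.0016 without the cells of other types or without mast-rich cells (-0.0016). Each median covers only members with at least 10 CPM in its setting, and most of the called mast genes are missing from the -0.0016 values. Without those cells of other types Cpa3 was at -0.65 and Fcer1a at -0.61, and the same values held without mast-rich cells alone. Gzmb stayed at 1.15 without mast-rich cells. The immediate early median stayed between 0.68 and 0.91 over 16 alternatives, and Hspa1b (3.31 to 4.34), Fosb (1.78 to 2.05) and Irf8 (-1.65 to -1.07) stayed at least 2-fold apart in all 15. The cause of these shifts was not tested. No paired analysis was possible because each group has 1 library. Depth limits genes near 50 UMIs, and 3 counts amount to 0.277 CPM in CML and 0.549 CPM in WT.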
